A study of Mus musculus with 12 samples.

Results

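Nfia, Nfib, Nfic and Nfix, the 4 genes of the mouse nuclear factor I (NFI) family, were examined for open chromatin in wild-type and Runx1 knockout C2C12 myoblasts. Members were the ATAC-seq peaks whose centre lay in the body of 1 of these genes or within 10 kb of it. This gave 31 of the 34118 peaks of the wild-type (WT) list and 29 of the 27187 peaks of the Runx1 knockout (KO) list. C2C12 is an established mouse myoblast line that fuses into myotubes when serum is withdrawn, and ATAC-seq uses the Tn5 transposase to cut and tag accessible DNA. The series holds 12 samples in 4 groups of 3, and the lists used here cover the WT and Runx1KO cells held at day 0 in serum-rich growth medium (20% fetal bovine serum). The 2-day differentiation samples were not analysed here. The labels do not say how Runx1 was disrupted, whether the KO line is 1 clone, or whether replicates were separate cultures. Every peak name carries the replicate 1 library of its genotype, so each value below is that of 1 library, has no replicate error and supports no test between genotypes.

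NFI proteins are transcription factors that bind DNA as dimers, at a palindrome built around the letters TTGGC, through a conserved amino-terminal domain, and activate or repress through more variable carboxy-terminal regions. In muscle, Nfix drives the switch from the embryonic to the fetal programme of myoblasts and is active in regenerating and adult muscle. Nfia and Nfib are best known for the development of glia, brain and lung, and Nfic for the growth of tooth roots. NFI factors can open or hold open chromatin at enhancers.

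The promoter windows that bear on the peaks are shown first, as given by RefSeq for GRCm38.p6, each 300 bases long from 250 before to 50 after a start site, 5′ to 3′ on the strand of the gene. Capitals mark exact matches, on either strand, to the RUNX core TGTGGT, the ETS core CCGGAA, the NFI letters TTGGCA or the AP-1 site TGANTCA. The NFI letters searched are TTGGC followed by A, not the full palindrome. No searched motif overlaps another in these 4 windows. The table of windows held 1 entry for Nfia, 1 for Nfic and 4 for Nfix. The window of G430095P16Rik, a long non-coding RNA gene inside Nfix, at chr8:84722807-84723106 on the plus strand, is shown because it was the only window in the table to lie under a member peak. The 4 Nfix windows are numbered by position. Window 1 (chr8:84772826-84773125, minus strand) and window 3 (chr8:84775779-84776078, minus strand) are shown because they hold a RUNX core and a group of 3 peaks lies between them. The Nfic window is at chr10:81427124-81427423 on the minus strand.

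G430095P16Rik window: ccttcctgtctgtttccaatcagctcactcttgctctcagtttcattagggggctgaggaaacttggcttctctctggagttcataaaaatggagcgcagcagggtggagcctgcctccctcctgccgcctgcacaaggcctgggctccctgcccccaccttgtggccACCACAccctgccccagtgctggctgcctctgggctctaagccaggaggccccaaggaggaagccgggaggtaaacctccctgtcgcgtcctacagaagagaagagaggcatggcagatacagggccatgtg

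Nfix window 1: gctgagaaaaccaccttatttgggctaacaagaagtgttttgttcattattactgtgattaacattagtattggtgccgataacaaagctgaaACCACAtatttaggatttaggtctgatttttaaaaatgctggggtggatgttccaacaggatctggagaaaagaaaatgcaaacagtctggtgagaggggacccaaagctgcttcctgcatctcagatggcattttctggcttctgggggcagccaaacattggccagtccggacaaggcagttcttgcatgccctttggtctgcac

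Nfix window 3: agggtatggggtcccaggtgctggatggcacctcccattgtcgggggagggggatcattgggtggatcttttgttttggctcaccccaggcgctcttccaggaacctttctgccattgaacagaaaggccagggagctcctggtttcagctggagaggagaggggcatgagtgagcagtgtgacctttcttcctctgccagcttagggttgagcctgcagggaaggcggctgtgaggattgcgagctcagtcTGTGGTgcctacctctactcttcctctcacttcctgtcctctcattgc

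Nfic window: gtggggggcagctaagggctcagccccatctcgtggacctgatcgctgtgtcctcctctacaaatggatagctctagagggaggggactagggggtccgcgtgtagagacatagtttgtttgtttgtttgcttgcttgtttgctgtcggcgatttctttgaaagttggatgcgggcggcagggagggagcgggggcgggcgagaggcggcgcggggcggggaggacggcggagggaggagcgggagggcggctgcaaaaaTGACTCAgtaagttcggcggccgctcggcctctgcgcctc

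The G430095P16Rik window had a RUNX core at chr8:84722975-84722980. The summit of the WT peak over it lay at position 84722981 and the summit of the KO peak at the same base, 3 bp from the middle of the core. Of all 7179 WT summits that fall in a promoter window, 891 (12.4%) fell in a window with a RUNX core. Of the 7179, 70 (0.975%) lay within 10 bp of a RUNX core. Summits in windows without a core could not be counted there, so 0.975% is not the share among windows with a core. The peak was shared, that is, called in both lists. It lay at chr8:84722834-84723492 in the WT list with a fold of 8.61. In the KO list it lay at chr8:84722886-84723502 with a fold of 6.96. The ratio of KO to WT fold was 0.809, against a median of 0.869 over all pairs of shared peaks with 1 partner each. Here fold is the deposited ratio of a peak to its local background. Nfix windows 1 and 3 each held 1 RUNX core, and windows 2 and 4 held none. Of all 32619 windows of this length, 16.6% held this core. The Nfic window and Nfix window 4 each held 1 AP-1 site, a motif found in 7.85% of windows. The ETS core (15.0% of windows) and the NFI letters TTGGCA (14.1%) were absent from all 6 windows of the NFI genes. The shorter TTGGC was not counted and does occur in Nfix windows 1, 2 and 3, so the absence covers TTGGCA only. The E-box CANNTG, the site of myogenic bHLH factors and present in 72.3% of windows, occurred 5 times in the Nfia window. A match describes these letters only.

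None of the 6 windows of the NFI genes overlapped a peak of either list, whereas 40.3% of the windows of protein-coding genes overlapped a WT peak and 36.9% a KO peak. All 6 windows lie inside the genes and none lies at an outer gene end, and Nfib had no window. Start sites at the gene ends and at Nfib are therefore not covered by this count. At Nfix the numbering of the calls ran without a gap past all 4 windows in both lists, so no call made there had been removed before deposit. Nfix window 2 lay 267 bp from the nearest WT peak. Nfix window 3 lay 365 bp from one. At Nfic, 3 WT call numbers and 1 KO call number were missing between the retained peaks on either side of the window, so a call in that stretch had been removed, at a position that is not known. At Nfia 3 numbers were missing in each list around the window, in a stretch whose nearest retained WT peak was 190091 bp away. Member peaks in general lay away from gene ends. Only 2 of 31 WT members (6.45%) and 1 of 29 KO members (3.45%) were centred within 1 kb of an end of a protein-coding gene, against 25.4% of all WT peaks and 27.9% of all KO peaks. Members were chosen by lying in or near genes of 35729 to 540811 bp, so this comparison also follows gene length. The 2 WT members near an end were a WT specific peak at Nfix and a shared peak at Nfib.

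The number of peaks differed widely among the 4 genes. Nfix, at chr8:84704712-84801238, had 17 WT peaks and 14 KO peaks. Nfib, at chr4:82290173-82506751, had 7 and 6. Nfic, at chr10:81396191-81431919, had 4 and 3, and Nfia, at chr4:97578066-98118876, had 3 and 6. Nfia is the longest of the 4 with 540811 bp and Nfic the shortest with 35729 bp, so the order changed when counts were taken per 100 kb of the gene and its flanks.

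**Figure D1:**
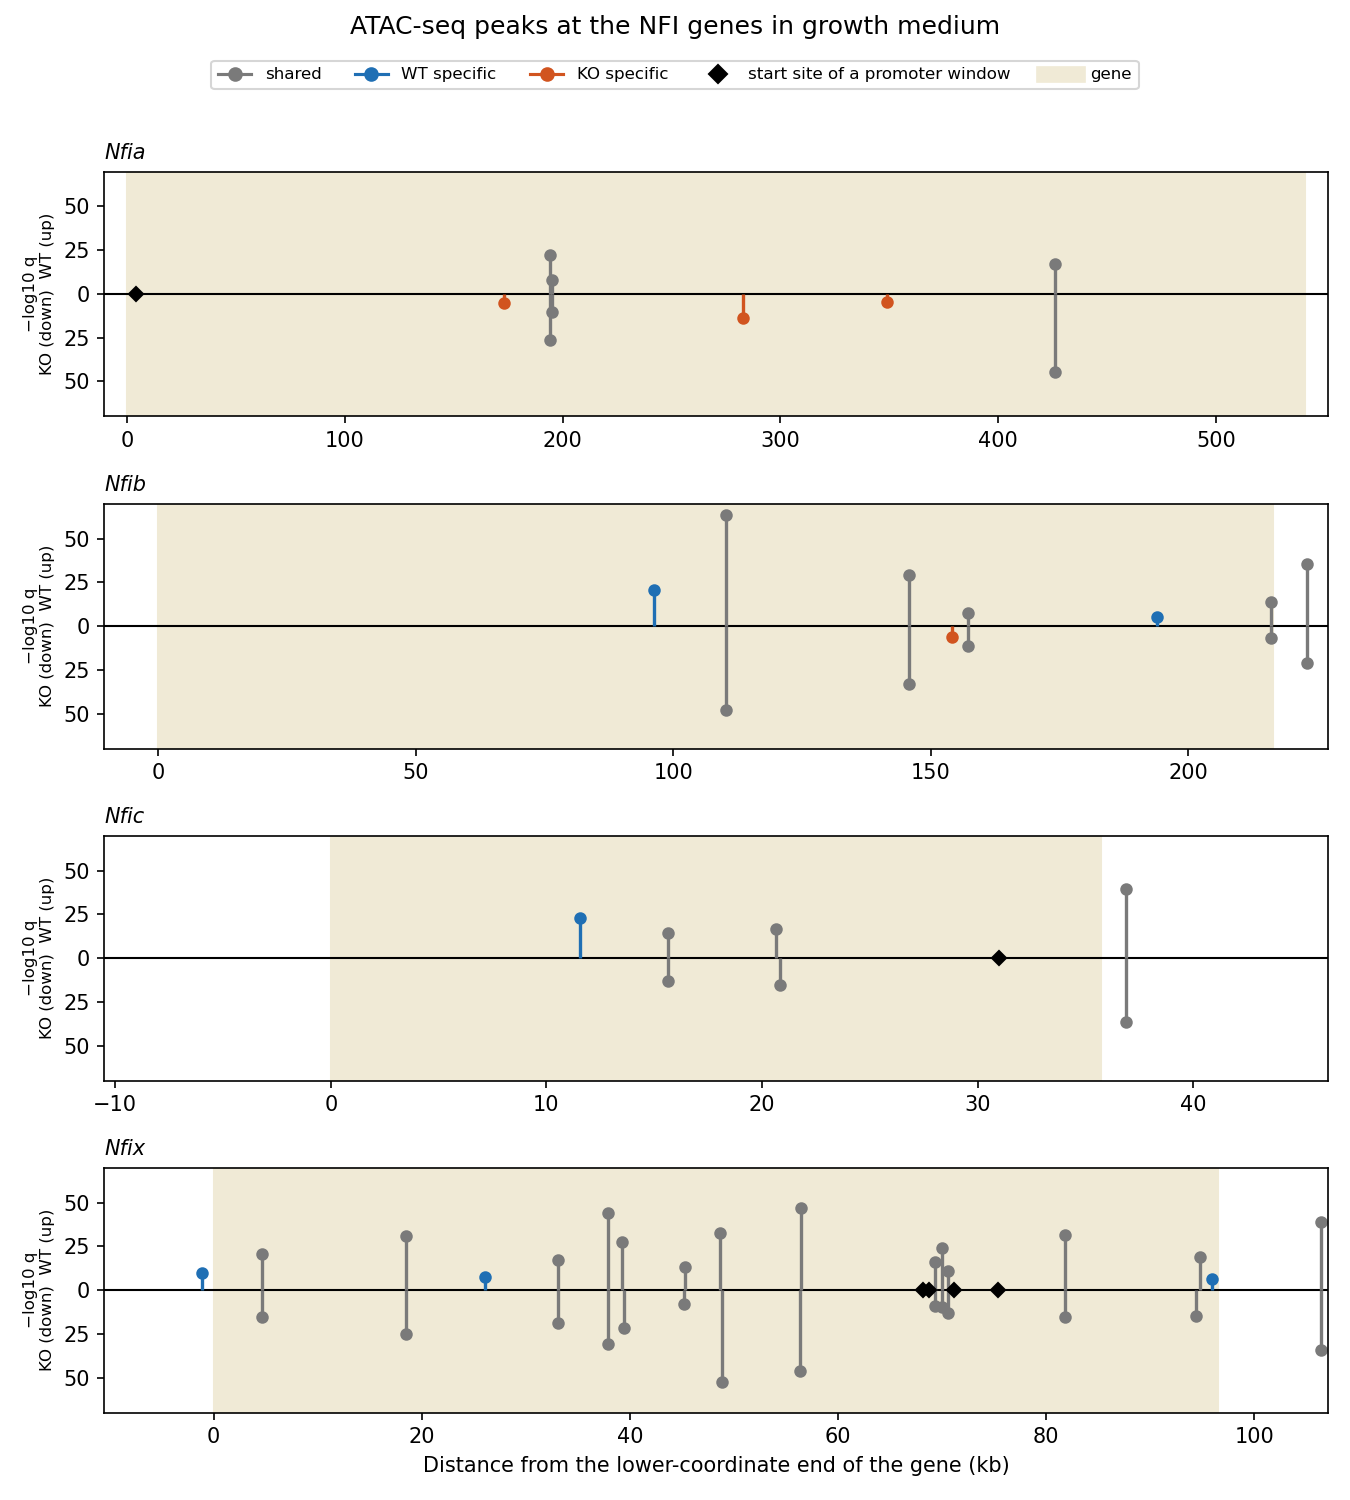
ATAC-seq peaks in and around each NFI gene, placed by their centre in kb from the lower-coordinate end of the gene. The height is the deposited −log10 q, with WT peaks drawn upward and KO peaks downward, and diamonds mark start sites of promoter windows. Nfix carries 17 WT peaks along its whole length, whereas Nfia has 3 WT peaks in a gene of 540811 bp.

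In the WT list Nfix had 14.6 peaks per 100 kb (95% exact Poisson interval 8.50 to 23.4, for counting error only). Nfic had 7.18 (1.96 to 18.4), Nfib 2.96 (1.19 to 6.10) and Nfia 0.535 (0.110 to 1.56). Neighbours in this order had overlapping intervals. The interval of Nfix did not overlap those of Nfib and Nfia, and that of Nfic did not overlap that of Nfia. The KO list gave the same order, with 12.01, 5.38, 2.54 and 1.07 peaks per 100 kb. There the intervals of Nfic (1.11 to 15.7) and Nfia (0.393 to 2.33) did overlap. The KO interval of Nfix (6.57 to 20.2) did not overlap those of Nfib (0.931 to 5.52) and Nfia. Against protein-coding genes of 0.5 to 2 times its length, Nfix was surpassed in WT density by 2 of 4061 genes, and in KO density by 2 as well. The median of those genes was 1.77 WT peaks per 100 kb. Nfia lay at percentile 46.6 of 601 genes of like length by the WT list and at percentile 70.9 by the KO list. Nfib lay at percentiles 76.4 and 80.2, and Nfic at 91.7 and 90.4.

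**Figure D2:**
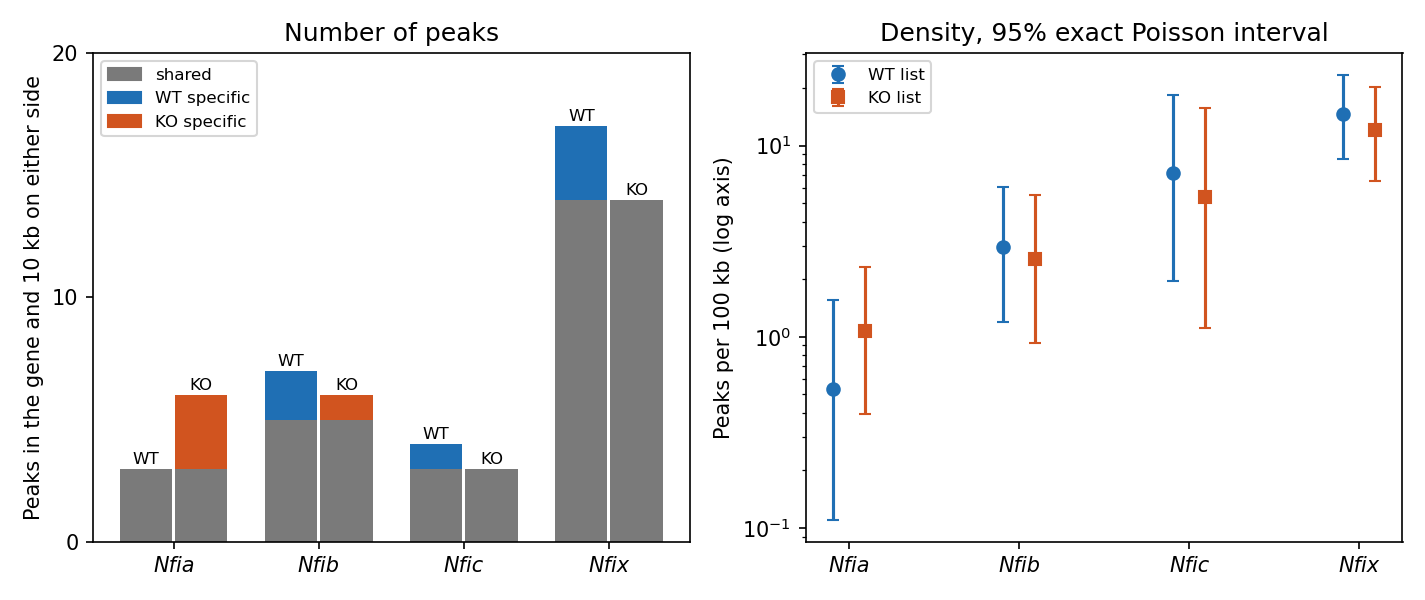
Left, number of peaks of each class at each gene, flanks of 10 kb included, for both lists. Right, peaks per 100 kb on a log axis with 95% exact Poisson intervals, from 0.535 at Nfia to 14.6 at Nfix in the WT list.

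Most member peaks were present in both genotypes. Of the 31 WT peaks, 25 were shared and 6 were WT specific (19.4%, 95% exact binomial interval 7.45 to 37.5). Over the whole WT list 27.3% of peaks were WT specific, and 25.6% of those at protein-coding genes. Of the 29 KO peaks, 25 were shared and 4 were KO specific (13.8%, interval 3.89 to 31.7), against 9.59% of the whole KO list and 7.95% at protein-coding genes. Both intervals include the share of the whole list, so neither share was distinguishable from it at these counts. The KO share rested on Nfia, since it was 4.35% (1 of 23) without that gene and 26.7% (4 of 15) without Nfix. Runx1, the targeted gene, had 12 KO peaks, all shared, and 19 WT peaks, of which 7 were specific. The lists do not show the edited allele.

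Nfix, the member with the best described role in muscle, had 3 WT specific peaks, no KO specific peak and 14 shared ones. The KO specific share of 0 of 14 KO peaks had a 95% exact binomial interval of 0 to 23.2%, which includes the 9.59% of the whole KO list. The WT specific peaks were low in the WT list. The peak at chr8:84703495-84703743 had a fold of 5.06 and a −log10 q of 9.54, and lay in the neighbouring gene Lyl1, a bHLH factor of blood and vessel cells, 1092 bp outside Nfix. The peak at chr8:84730623-84730947 had a fold of 4.44 and a −log10 q of 7.50. That at chr8:84800479-84800716, centred 641 bp inside the high-coordinate (5′) end of Nfix, had a fold of 3.97 and a −log10 q of 6.41. These values placed the 3 peaks at percentiles 26.1, 17.1 and 12.2 of the WT list by −log10 q. At the last 2 of these, the KO peaks on either side had consecutive call numbers, so no KO call had been made and removed between them.

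The strongest Nfix peak of the WT list was at chr8:84760882-84761335, with a fold of 11.8 and a −log10 q of 47.0. In the KO list it was called at chr8:84760626-84761431, with a fold of 9.82 and a −log10 q of 46.4; both summits coincided to the base. The strongest KO peak was instead at chr8:84753158-84753875, with a fold of 9.995 and a −log10 q of 52.3. Its WT partner had a fold of 8.86 and a −log10 q of 32.4, and was 381 bp wide against 718 bp in the KO list. The member nearest to the limit of 10 kb was the shared peak at chr8:84810958-84811235, centred 9858 bp outside Nfix, with folds of 9.66 and 8.10. The peak at chr8:84742180-84743046 had a fold of 7.39 in the WT list against 5.75 in the KO list.

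A group of 3 shared peaks spanned chr8:84773928-84775413, between Nfix windows 2 and 3. The middle one, at chr8:84774462-84774863, had a fold of 6.56 in the WT list against 3.91 in the KO list, the lowest ratio among all 25 member pairs (0.597). Its summits lay 304 bp apart, the largest distance among the members, whose median was 20 bp. The peak before it had folds of 5.35 and 3.86, and the peak after it 4.43 and 4.41. Within this group the first and second peaks therefore had the lower value in the KO list, and the last had almost equal values.

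Nfia was the member with the most KO specific peaks. Its 3 WT peaks were all shared, and 3 of its 6 KO peaks were KO specific. Such a pattern, at least 3 KO specific peaks and no WT specific one, was found at 18 of 14224 protein-coding genes with a peak (0.127%). Genes with few peaks cannot show it, and 516 protein-coding genes had at least as many KO peaks as Nfia. The share among genes of like length or peak number was not computed, so the 0.127% does not show how rare the pattern is for such a gene. The pattern was singled out after the counts had been seen. The KO specific peak at chr4:97860452-97861155 was 704 bp wide with a fold of 7.79 and a −log10 q of 13.998, at percentile 37.8 of the KO list, and lay in the long non-coding RNA gene Gm19417 inside Nfia. The peak at chr4:97751051-97751323 had a −log10 q of 5.08 and lay in Gm38709. The peak at chr4:97927019-97927321 had a −log10 q of 4.86. Both of these were in the lowest 5% of the KO list, at percentiles 4.26 and 3.66. All 3 lay where at least 2 WT call numbers were missing between the retained WT peaks. The peaks at chr4:97860452-97861155 and chr4:97927019-97927321 lay in the same stretch of 230699 bp between retained WT peaks. The same 2 missing numbers were therefore counted for both, and the positions of the removed calls are not known. None of the 3 passed the median −log10 q of the KO list, and 1 reached a −log10 q of 10.

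The shared Nfia peaks comprised a pair about 1 kb apart and a single peak deeper in the gene. The peak at chr4:97772084-97772600 had a fold of 10.9 in the WT list against 10.1 in the KO list. Its neighbour at chr4:97773266-97773481 had 5.97 and 6.02. The single peak, at chr4:98004181-98004599 in the WT list, had a fold of 10.4 and a −log10 q of 17.4 there, and a fold of 15.9 and a −log10 q of 44.6 in the KO list, with summits 5 bp apart. This peak ranked at percentile 53.7 of the WT list and at percentile 91.3 of the KO list. It was the member with the highest KO to WT ratio of folds, 1.52.

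Nfib had 2 WT specific peaks, 1 KO specific peak and 5 shared ones. The WT specific peak at chr4:82386273-82386554 had a fold of 11.98 and a −log10 q of 20.4, at percentile 61.0 of the WT list, the second highest −log10 q among the WT specific members. Between the retained KO peaks on either side, 5 KO call numbers were missing, at positions that are not known. The second, at chr4:82484006-82484131, was 126 bp wide with a −log10 q of 5.43. The KO specific peak, at chr4:82444129-82444432, had a fold of 5.55 and a −log10 q of 6.36. The strongest member peak of the WT list was the shared Nfib peak at chr4:82400084-82400922, with a fold of 17.1 and a −log10 q of 63.6, and with a fold of 13.96 and a −log10 q of 47.97 in the KO list.

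Toward the high end of Nfib, 2 shared peaks had lower values in the KO list. The one centred 400 bp from the end of the gene, at chr4:82506100-82506603, had a fold of 8.06 in the WT list against 5.04 in the KO list. The other, outside the gene in the long non-coding RNA gene Gm11266, had 13.3 and 9.31. Of the other 3 shared peaks, all deeper in the gene, the strongest (17.1 and 13.96, above) also had the lower value in the KO list. The peaks at chr4:82435844-82436137 (13.3 and 13.7) and chr4:82447139-82447585 (6.29 and 7.44) had the higher value there. All 5 ratios lay within 1.5 times of the median ratio of all pairs.

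Nfic had 1 WT specific peak and 3 shared ones. The WT specific peak, at chr10:81407635-81407845, was 211 bp wide with a fold of 7.95 and a −log10 q of 23.2, at percentile 66.5 of the WT list. It had the highest −log10 q of the 6 WT specific peaks at NFI genes. Between the retained KO peaks on either side, 3 KO call numbers were missing, at positions that are not known. The strongest Nfic peak lay 1146 bp outside the gene at chr10:81432933-81433198, with a fold of 12.01 in the WT list against 10.6 in the KO list, and its summit was at the same base in both. The shared peaks at chr10:81411613-81412010 (5.74 and 5.25) and chr10:81416604-81417082 (7.06 and 6.51) likewise had the lower value in the KO list.

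**Figure D3:**
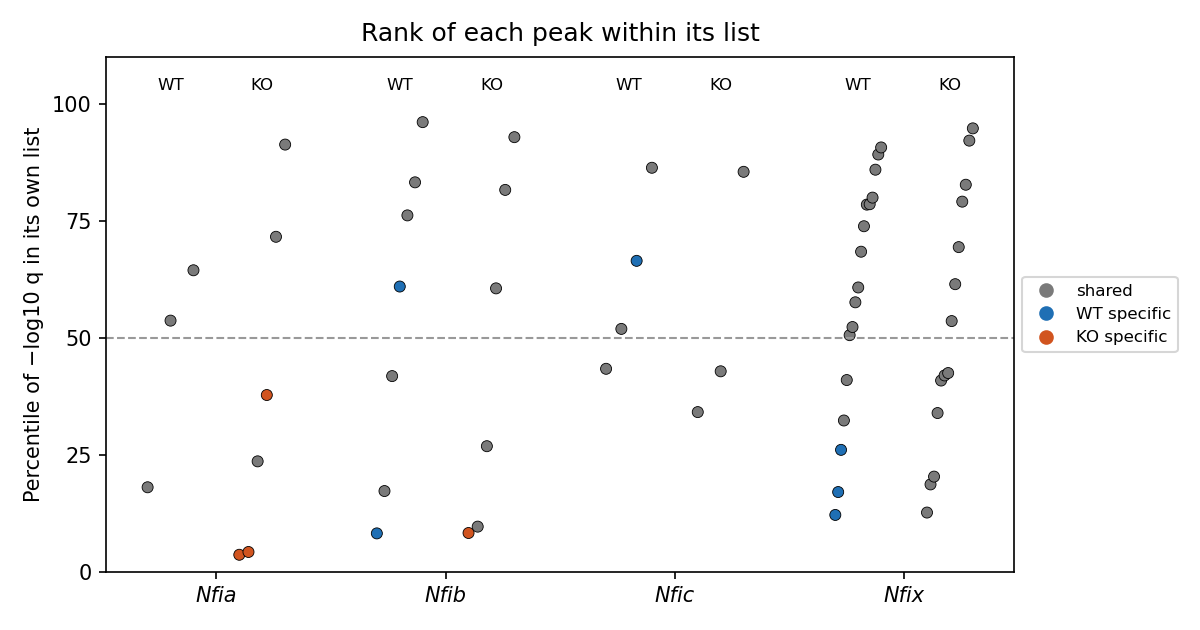
Percentile of each member peak by −log10 q within its own list, by gene, with colours for the class; the dashed line is the middle of the list. The 4 KO specific peaks lie below the middle of the KO list, and 2 of the 6 WT specific peaks lie above the middle of the WT list.

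Specific members were weaker at the median than shared ones, with overlapping values. The median −log10 q of the 6 WT specific members was 8.52 and that of the 25 shared WT members 22.1. For the KO list the medians were 5.72 and 18.8. Over the whole WT list the medians of specific and shared peaks were 8.38 and 21.1, and over the whole KO list 8.38 and 19.1, so the members followed the pattern of the lists. Above the middle of the WT list by −log10 q lay 21 of the 31 members, and 2 of these were WT specific, namely those at Nfib and Nfic described above (9.52%, against 6.17% of all WT peaks at or above the median). Above the middle of the KO list lay 13 of the 29 members, and all 13 were shared; of all KO peaks at or above the median, 1.45% were KO specific. WT specific members had a median width of 244 bp against 419 bp for shared ones, and the same medians over the whole WT list were 250 and 424 bp.

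Missing call numbers were counted for each specific peak, between the retained peaks of the other list on either side of it. A missing number shows that a call was made and removed somewhere between them. The stretch can be long and the position is not known, so the removed call need not lie at the specific peak. At least 1 number was missing for 4 of the 6 WT specific members, against 87.1% of all WT specific peaks. The same held for 4 of the 4 KO specific members, against 87.4% of all KO specific peaks. The 2 exceptions were the Nfix peaks named above. Among the KO specific members, 2 at Nfia lay in the same stretch and were counted with the same missing numbers. The lists of specific peaks also carry an unlabelled column that repeats the start of some peaks. It marked 2 of the 6 WT specific members, at Nfib and Nfic, against 10.7% of the WT specific list, and 1 of the 4 KO specific members, at Nfia, against 2.22% of the KO specific list. Its meaning is not given in the sources used here.

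The 25 shared peaks each had 1 partner, so that both deposited folds can be set side by side. The ratios were not scaled for depth, which is unknown. The KO fold was the lower one in 19 of 25 pairs (76.0%), as in 72.9% of all 24065 pairs with 1 partner each. The median ratio of KO to WT fold was 0.840 for the members and 0.869 for all pairs. By gene, the KO fold was lower in 12 of 14 pairs at Nfix, 3 of 3 at Nfic, 3 of 5 at Nfib and 1 of 3 at Nfia. The median ratios were 0.821, 0.914, 0.814 and 1.01. A departure from the median ratio of all pairs by more than 1.5 times was seen upward at 1 member pair, the deep Nfia peak, against 5.66% of all pairs, and downward at 0 of 25, against 3.86%. All other member pairs lay within 1.5 times of that median.

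**Figure D4:**
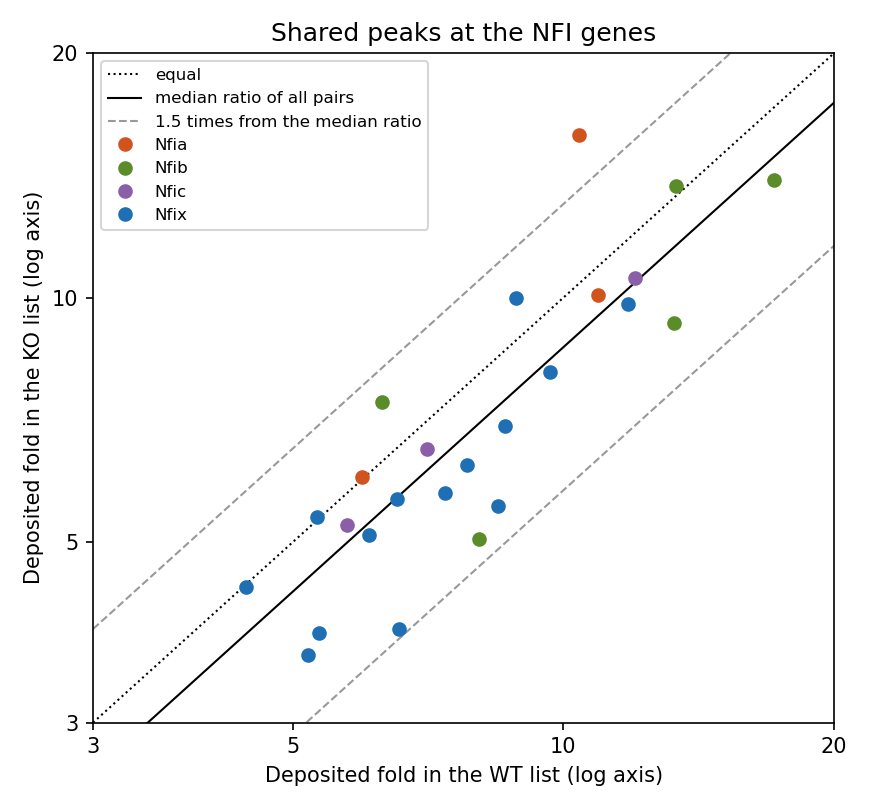
Deposited fold in the KO list against that in the WT list for the 25 shared peaks at NFI genes, on log axes. The solid line is the median ratio of all pairs (0.869), the dashed lines lie 1.5 times from it, and 1 Nfia peak (10.4 in WT, 15.9 in KO) lies above the upper one.

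A WT specific peak was present at 3 of the 4 NFI genes, against 38.4% of protein-coding genes with a peak, and a KO specific peak at 2 of the 4, against 11.3%. Long genes hold more peaks, so this comparison also follows gene length. The protein-coding genes of like length with the most similar counts, over the 2 lists, were then listed. For Nfix they were Gnao1 with 13 shared and 3 WT specific peaks, Zfp827 with 12 and 3, and Diaph1 with 11 and 3. No gene of like length had exactly the counts of Nfix or of Nfia. For Nfia they were B3galt1, Syt1 and Trappc9, each with a summed difference of 2 peaks. For Nfib they were Cobl, Dab2ip and Frmd5, among 9 of 1891 candidates with the same counts, and for Nfic Tmcc2, Nisch and Nckap5l, among 147 of 7131.

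Genes tied to NFI factors in muscle were then counted, 10 in all. The list held Pax7, which acts upstream of Nfix, the AP-1 subunit Jund, the kinase Prkcq, the NFI-regulated genes Ckm, Eno3, Myh7, Nfatc4, Sox6 and Mstn, and the NFI partner Ski. Of these, 6 had a WT peak and 3 had a KO peak. Of their 17 WT peaks 8 were WT specific (47.1%, 95% exact binomial interval 22.98 to 72.2, which includes the 27.3% of the list). None of their 9 KO peaks was KO specific (interval 0 to 33.6%), against 9.59% of the KO list. Neither share was distinguishable from that of its list at these counts. Of the 8, 5 lay at Ski, a corepressor that promotes muscle differentiation, and the other 3 were the single peaks of Pax7, the satellite cell factor, of Ckm, the muscle creatine kinase, and of Nfatc4, a calcium-responsive factor. The Ckm peak, at chr7:19405514-19405662, had a fold of 6.05 and a −log10 q of 6.09. The Pax7 peak, at chr4:139771191-139771414, had 8.83 and 15.4, and the Nfatc4 peak, at chr14:55822558-55823255, had 6.80 and 9.42. The 5 Ski peaks had a −log10 q from 5.86 to 15.2, and the 4 shared Ski peaks from 22.2 to 32.4 in the WT list. Of the other 6 genes, 2 had shared peaks alone and 4 had no peak in either list.

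The labelled cell type was checked by peaks at marker genes, which do not report expression. Of 8 myoblast genes, 7 had a peak in both lists, among them Myod1, Des and Cdh15, and Myf5 had none. The 3 leukocyte genes had none, and 7 of 12 genes of other cell types, leukocytes included, had a WT peak. Of all 21631 protein-coding genes, 64.6% had a WT peak and 60.8% a KO peak, so these counts do not set the cell type apart.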

How the data were processed

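The study profiled accessible chromatin by ATAC-seq; the files used are 5 peak lists without a header in the layout of a narrowPeak file, for WT and Runx1KO cells in growth medium. Per the submitters' processing notes the build is mm10; the aligner, the peak caller, duplicate handling and the filters are not given in the sources used here. The deposited fold is a ratio (peak over local background). The deposited −log10 q values, −log10 p values and score come from the same call of 1 library per genotype. Fold and −log10 q were used; depth is unknown.

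Peaks were placed by their centre in genes of the RefSeq table of GRCm38.p6, the assembly that mm10 represents, with 10 kb on either side, and coordinates are counted from 1. The table holds no exons, so exons and introns are not used here. Classes came from the deposited shared and specific lists, which matched an overlap of 1 bp between the full lists. Percentiles are the share of a list with a lower value. Exact binomial and exact Poisson intervals (95%) treat peaks as units. Overlap and counting were tested on simulated data (3 of 3 checks passed) and against bedtools 2.31.1, with scipy 1.17.1, pandas 2.3.3 and numpy 2.4.6 under Python 3.11.15. Motifs were searched in RefSeq promoter windows, since no genome was used. The genes given with values were the members, Runx1, members of the muscle list with a specific peak, and the 3 genes of 0.5 to 2 times the length with the smallest summed difference of class counts. Other names are those of the lists (muscle, cell type markers) or of genes in which a member peak lies. The members and lists were chosen with earlier results of these data known. Alternatives in overlap, strength threshold, gene distance, nearest gene end, summit and each gene left out were computed.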

Additional observations from a re-analysis of the deposited data

How the results depend on the processing

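The WT specific share of 19.4% (27.3% of all WT peaks) was 22.6% against 30.1% with an overlap of 50% of the peak, 29.0% against 34.96% with a reciprocal one, 18.5% in genes only, 20.4% with 50 kb on either side, 15.6% by the nearest gene end and 16.7% to 21.4% with 1 gene left out. At a −log10 q of at least 10 it was 8% (2 of 25) against 14.4% of all such WT peaks, and at or above the list's median 9.52% against 6.17%, so the side on which it lay of the whole list depended on the threshold. The KO specific share of 13.8% (9.59% of all KO peaks) was 0% (0 of 13) against 1.45% at or above the median −log10 q, 4.55% against 4.49% at a −log10 q of at least 10, 20.7% against 14.9% and 24.1% against 18.4% with the stricter overlaps, 8.70% with 50 kb, 15.6% by the nearest gene end and 4.35% to 26.7% with 1 gene left out. At or above the median, with 50 kb and without Nfia it was thus below the whole list. The threshold removes the weak peaks by construction; the cause of the other changes was not tested. Of 112 counts per gene under the alternatives, 85 were within 1.5 times the reported count. Among the 85 are counts of 0 that stayed at 0, which a strength threshold cannot lower. The WT specific count of Nfia and the KO specific count of Nfic were 0 under every alternative. The 85 of 112 therefore does not measure how stable the nonzero counts were. The 3 WT specific peaks of Nfix became 6 with a reciprocal overlap and 0 at a −log10 q of at least 10. The KO specific count at Nfix rose from 0 to 3 with a reciprocal overlap, and by the nearest gene end Nfix had 9 WT peaks and Nfib 16. No paired analysis was possible because the lists hold values of 1 library per genotype; for the same reason no replicate could be left out.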

Other observations

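Beyond 10 kb from Nfib, and nearest to an end of that gene among protein-coding genes, lay a further 9 WT peaks, all of them shared, on both sides of the gene. This stretch was looked at after the data had been seen. The strongest, at chr4:81970389-81970875, about 320 kb from the gene, had a fold of 24.6 and a −log10 q of 97.9 in the WT list, at percentile 99.3, and a fold of 13.7 and a −log10 q of 39.7 in the KO list. The peak at chr4:82136784-82137137 had folds of 14.3 and 8.07, and the peak at chr4:82548326-82548484 had 9.68 and 4.65. These 3 pairs were under the median ratio of all pairs by more than 1.5 times, and none of the 9 was above it by as much. Over all pairs, 3.86% were under it by as much. The KO fold was the lower one in 8 of the 9, as in 72.9% of all pairs, with a median ratio of 0.647 against 0.869 over all pairs. The ratios come from 1 library per genotype and were not scaled for depth. The KO list had 1 KO specific peak in the same stretch, at chr4:82641316-82641639, with a −log10 q of 5.19.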
